A study of Mus musculus with 72 samples.

Results

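Aminoacyl-tRNA synthetases are the enzymes that attach each amino acid to its transfer RNA, and their transcripts were followed in mouse liver over the day. The set was given as 36 gene symbols, of which 34 had a probe set annotated with that symbol alone: 18 enzymes of the cytosol and 16 of the mitochondria, whose symbols end in 2. These 34 genes stood among 22180 genes with a probe set of their own, and all 34 lay among the 13308 genes kept after the lowest 40% by mean level were left out. Aars shared its probe set with Exosc6 and Dars was not analysed here; Mars is listed under its newer symbol Mars1. The rule names gene symbols and uses no measured value, but the set was proposed with earlier results of these data known.

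Livers came from 2 cohorts of mice kept in 12 h light and 12 h dark and collected every 4 h, at ZT0, ZT4, ZT8, ZT12, ZT16 and ZT20, where ZT (zeitgeber time) counts hours from the onset of light. In the SIRT6 cohort, of strain label "129 mixed", liver-specific SIRT6 knockout (KO) livers stood against wild-type (WT) livers, and in the SIRT1 cohort, of strain label "C57BL/6", liver-specific SIRT1 KO livers stood against their own WT livers. SIRT6 and SIRT1 are NAD-dependent deacylases, and the study asked how each shapes daily transcript rhythms. With 3 replicates in each of 24 groups there were 72 arrays of total RNA, 36 in each cohort. The labels name neither the Cre driver nor the age or sex of the mice, and they do not say that replicates are separate animals, so p-values reflect only the spread among the samples at hand. In whole liver RNA, fewer cells of a type and less RNA per cell cannot be told apart.

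Values are log2(intensity + 16) of 1 probe set per gene, the one with the highest mean, and a difference is the KO mean minus the WT mean on that scale, which understates the change of dim genes. Tests are from limma, adjusted over all 13308 genes by the Benjamini-Hochberg method, and a gene was called at an adjusted p under 0.05. Array medians of the SIRT6 cohort were 43.9 to 52.9 and those of the SIRT1 cohort 44.4 to 53.8, and the 99th percentiles of the cohorts (3217 to 3430 against 3440 to 3641) did not overlap, so levels were compared only within a cohort. The lowest correlation between replicates was 0.952 (SIRT6) and 0.974 (SIRT1), and 1 component held 52.6% of the variance within groups of the SIRT6 cohort. The Sirt6 probe set read higher in the livers labelled SIRT6 KO (7.89 ± 0.10) than in WT livers (7.32 ± 0.18; SD, n = 18 each), with no overlap and an adjusted p of 8.9e-09. The Sirt1 probe set read 8.74 ± 0.11 in livers labelled SIRT1 KO and 8.74 ± 0.18 in WT livers (adjusted p = 0.962). The files do not place these probes against the deleted exons, so neither reading checks a deletion, and KO and WT below are the livers' labels.

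Most amino acids have 1 enzyme in the cytosol and another in the mitochondria, both encoded in the nucleus; Kars and Gars make both forms, Eprs joins the glutamate and proline enzymes in 1 protein, and the phenylalanine enzyme of the cytosol needs the 2 subunits Farsa and Farsb. Several cytosolic enzymes, among them Eprs, Iars, Lars, Mars1, Qars, Rars and Kars, sit in a multisynthetase complex. Genes of cytosolic synthetases are known targets of ATF4, the transcription factor of the amino acid response, which binds composite elements known as CARE.

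Promoter windows of 300 bases, from 250 before the gene start to 50 after it, were taken from RefSeq (GRCm38.p6) for 25 of the 34 members, 11 cytosolic and 14 mitochondrial; Aars2 had 2 windows. On both strands, TGATGNAA (CARE) was found in the windows of Gars, Iars, Tars and Yars, that is in 4 of 11 cytosolic and 0 of 14 mitochondrial members, against 3.97% of all 32851 RefSeq windows. CACGTG (E-box, bound by clock factors) was found in Ears2, Farsb, Iars and Tars, against 7.15% of all windows. TTATGNAA (D-box) was found in Vars2 alone (3.38% of all windows), TGACGTCA (CRE) in none (1.79%), and its part TGACG, which lies inside CRE, in 10 members (20.8%). These are matches of letters, not shown binding sites. The windows below are those of Tars, the member with the widest daily swing, of Iars and Yars, which carry the calls at a single time and in the SIRT1 cohort, and of Ears2, the mitochondrial member with a called rhythm in both genotypes of the SIRT1 cohort. Capitals mark the CARE and E-box matches; the CARE match starts at position -15 from the gene start in Tars, 7 in Iars and 3 in Yars, and the E-box at 19 in Tars, -69 in Iars and 21 in Ears2.
Tars (chr15:11399609-11399908, minus strand): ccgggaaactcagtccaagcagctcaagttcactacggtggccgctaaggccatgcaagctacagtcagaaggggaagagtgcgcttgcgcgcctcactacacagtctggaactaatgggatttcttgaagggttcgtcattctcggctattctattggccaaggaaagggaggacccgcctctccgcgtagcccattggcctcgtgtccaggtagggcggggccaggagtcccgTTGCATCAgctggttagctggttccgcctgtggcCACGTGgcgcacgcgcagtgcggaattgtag
Iars (chr13:49681880-49682179, plus strand): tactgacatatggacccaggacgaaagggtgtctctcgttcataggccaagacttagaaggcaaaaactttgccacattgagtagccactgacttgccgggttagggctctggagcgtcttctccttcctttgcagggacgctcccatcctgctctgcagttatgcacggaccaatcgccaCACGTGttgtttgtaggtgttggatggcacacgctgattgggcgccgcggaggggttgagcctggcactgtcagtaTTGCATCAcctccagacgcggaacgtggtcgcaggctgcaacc
Yars (chr4:129189653-129189952, plus strand): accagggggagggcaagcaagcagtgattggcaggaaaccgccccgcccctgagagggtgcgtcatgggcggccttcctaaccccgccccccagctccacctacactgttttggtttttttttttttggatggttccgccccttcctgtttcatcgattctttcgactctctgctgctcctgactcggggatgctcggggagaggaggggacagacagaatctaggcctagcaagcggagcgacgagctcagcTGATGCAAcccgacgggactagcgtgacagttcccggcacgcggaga
Ears2 (chr7:122067037-122067336, minus strand): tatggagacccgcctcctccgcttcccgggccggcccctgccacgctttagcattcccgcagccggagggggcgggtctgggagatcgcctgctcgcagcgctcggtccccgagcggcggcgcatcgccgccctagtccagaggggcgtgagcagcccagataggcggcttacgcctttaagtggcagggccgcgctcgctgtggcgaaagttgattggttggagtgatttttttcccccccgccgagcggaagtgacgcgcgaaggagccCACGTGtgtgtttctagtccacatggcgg

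Tars, the threonine enzyme of the cytosol, had the widest daily swing of the set in all 4 sets of 18 livers. In the SIRT6 cohort its values were 9.39, 8.53 and 8.54 at ZT8 and 10.10, 10.23 and 10.31 at ZT20 in KO livers, and 8.89, 8.99 and 8.90 at ZT8 and 10.04, 10.39 and 10.38 at ZT20 in WT livers. In the SIRT1 cohort they were 9.56, 9.49 and 9.33 at ZT8 and 10.34, 10.37 and 10.25 at ZT20 in KO livers, and 9.54, 9.49 and 9.61 at ZT8 and 10.55, 10.07 and 10.22 at ZT20 in WT livers. All livers of ZT20 lay above all livers of ZT8 within each set, and the KO and WT values overlapped at both times in both cohorts. A 24 h cosine was fitted to each set of 18 arrays, with amplitude as fitted peak minus trough. The amplitude of Tars was 1.30 ± 0.18 (2.47-fold, peak ZT21.3, adjusted p = 5.8e-04) in SIRT6 KO livers and 1.43 ± 0.15 (2.7-fold, peak ZT22.2, adjusted p = 3.1e-05) in their WT livers. Its amplitude was 0.98 ± 0.12 (1.97-fold, peak ZT22.9, adjusted p = 3.7e-05) in SIRT1 KO livers and 1.18 ± 0.12 (2.26-fold, peak ZT23.3, adjusted p = 2.2e-06) in theirs (± SE, n = 18 each). By amplitude Tars ranked 150 and 118 among all 13308 genes in SIRT6 KO and WT livers, and 314 and 177 in SIRT1 KO and WT livers. The test of a difference in rhythm between genotypes gave adjusted p-values of 0.847 (SIRT6) and 0.811 (SIRT1), and the daily means differed by -0.069 ± 0.080 (SE, adjusted p = 0.743) and 0.039 ± 0.055 (adjusted p = 0.747).

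**Figure D1:**
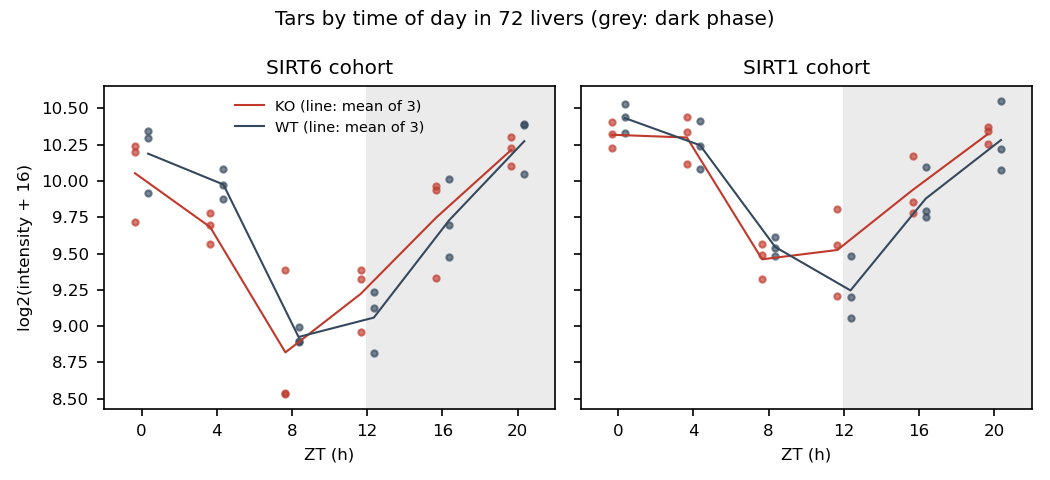
Tars in single livers against ZT (h), on the scale log2(intensity + 16); points are livers, lines join means of 3, KO is red and WT dark blue, and the dark phase is grey. In both cohorts the values are lowest at ZT8 and ZT12 and highest from ZT20 to ZT4, with KO and WT lines close to each other.

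The other synthetases had far smaller swings, and which of them were called rhythmic differed between the sets. In the SIRT6 cohort 5 of 34 members were rhythmic in KO livers (10.6% of all genes tested were), 7 in WT livers (10.1%), and only Tars in both (all genes 4.39%). In KO livers the others were Iars and the mitochondrial Mars2, Ears2 and Yars2, with peaks between ZT15.2 and ZT19.2, in the dark. In WT livers they were Mars1, Sars, Yars, Qars and the mitochondrial Sars2 and Wars2, with peaks between ZT23.8 and ZT5.3, around the change from dark to light and in the early light phase. The values below are those of the times with the highest and the lowest mean, so their separation is a description.

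Iars, the isoleucine enzyme, had 9.12, 9.02 and 9.14 at ZT4 and 9.66, 9.53 and 9.56 at ZT20 in SIRT6 KO livers, against 9.55, 9.68 and 9.48 at ZT0 and 9.26, 9.38 and 9.23 at ZT8 in WT livers, each set at its own highest and lowest times. In neither set did these times overlap. Its amplitude was 0.53 ± 0.069 in KO livers (peak ZT17.7, adjusted p = 3.2e-04) and 0.25 ± 0.085 in WT livers (adjusted p = 0.144), and the difference in rhythm was not called (adjusted p = 0.209). Yars2, the tyrosine enzyme of mitochondria, had 8.48, 8.24 and 8.36 at ZT8 and 8.82, 8.62 and 8.82 at ZT20 in KO livers (amplitude 0.33 ± 0.070, peak ZT19.2, adjusted p = 0.0134), and the 2 times did not overlap. Ears2, the mitochondrial glutamate enzyme, had 7.90, 7.81 and 7.72 at ZT8 and 8.06, 8.21 and 8.52 at ZT20 (amplitude 0.47 ± 0.11, peak ZT18, adjusted p = 0.0283). Mars2, the mitochondrial methionine enzyme, had 6.12, 5.69 and 5.77 at ZT4 and 6.22, 6.59 and 6.54 at ZT16 (amplitude 0.50 ± 0.12, peak ZT15.2, adjusted p = 0.0287), and lay near the filter on low levels. With single arrays left out in turn, Iars and Yars2 kept their call in 18 of 18 repeats, Mars2 in 13 and Ears2 in 11.

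In SIRT6 WT livers Mars1, the methionine enzyme of the cytosol, had 9.45, 9.30 and 9.36 at ZT0 and 8.90, 8.96 and 8.94 at ZT12, and these times did not overlap. Its amplitude was 0.25 ± 0.083 in KO livers (adjusted p = 0.132) and 0.44 ± 0.076 in WT livers (peak ZT23.8, adjusted p = 0.00417), and the difference in rhythm was not called (adjusted p = 0.496). Qars, the glutamine enzyme, had 9.34, 9.25 and 9.28 at ZT4 and 8.91, 8.94 and 9.17 at ZT20 in WT livers (amplitude 0.29 ± 0.067, peak ZT5.3, adjusted p = 0.0259). Sars, the serine enzyme, had 9.18, 9.34 and 9.28 at ZT0 and 8.70, 9.03 and 8.94 at ZT16 (amplitude 0.36 ± 0.088, peak ZT2.26, adjusted p = 0.0344). Wars2, the mitochondrial tryptophan enzyme, had 7.24, 7.41 and 7.42 at ZT0 and 6.95, 7.18 and 7.07 at ZT12 (amplitude 0.29 ± 0.070, peak ZT0.182, adjusted p = 0.0354). In these genes the high time lay in the light phase or at its start and did not overlap the low one. Sars2, the mitochondrial serine enzyme, had 7.95, 7.90 and 8.17 at ZT0 and 7.56, 7.51 and 7.68 at ZT16 (amplitude 0.36 ± 0.094, peak ZT1.83, adjusted p = 0.0497). Yars, the tyrosine enzyme of the cytosol, had 9.38, 9.52 and 9.34 at ZT0 and 9.00, 9.17 and 9.15 at ZT8 (amplitude 0.29 ± 0.077, peak ZT23.8, adjusted p = 0.0491). Sars2 and Yars passed narrowly and kept their calls in 4 and 3 of 18 repeats with an array left out, against 18 for Mars1, 14 for Qars, 11 for Sars and 8 for Wars2. Quantile normalization ended the calls of Qars, Sars, Wars2, Sars2 and Yars, and no filter those of Sars, Wars2, Sars2 and Yars. All probe sets ended those of Sars2 and Yars, a pseudocount of 64 that of Sars2, and the upper quartile as a covariate or no intensity trend that of Yars.

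Taking all 34 members whether called or not, the fitted peak lay in the dark for 28 members in SIRT6 KO livers and for 11 in WT livers. Among all genes tested the shares were 47.0% in KO livers and 38.8% in WT livers. Both classes showed it: 15 of 18 cytosolic members peaked in the dark in KO livers and 7 in WT livers, and 13 of 16 mitochondrial members in KO livers and 4 in WT livers. The circular mean of the 34 peaks was ZT18.7 in KO livers and ZT1.96 in WT livers. Most of these fits did not pass the test, so their peak times are loosely set; with any 1 array left out the counts were 27 to 29 in KO livers and 10 to 13 in WT livers. The test of a genotype difference in rhythm called 0 of 34 members (1 of all genes, 0.00751%), and 10 of 34 had an unadjusted p under 0.05 (8.25% of all genes). Iars had the lowest adjusted p of the set, and it became 0.038 when adjusted only over genes rhythmic in either genotype.

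**Figure D2:**
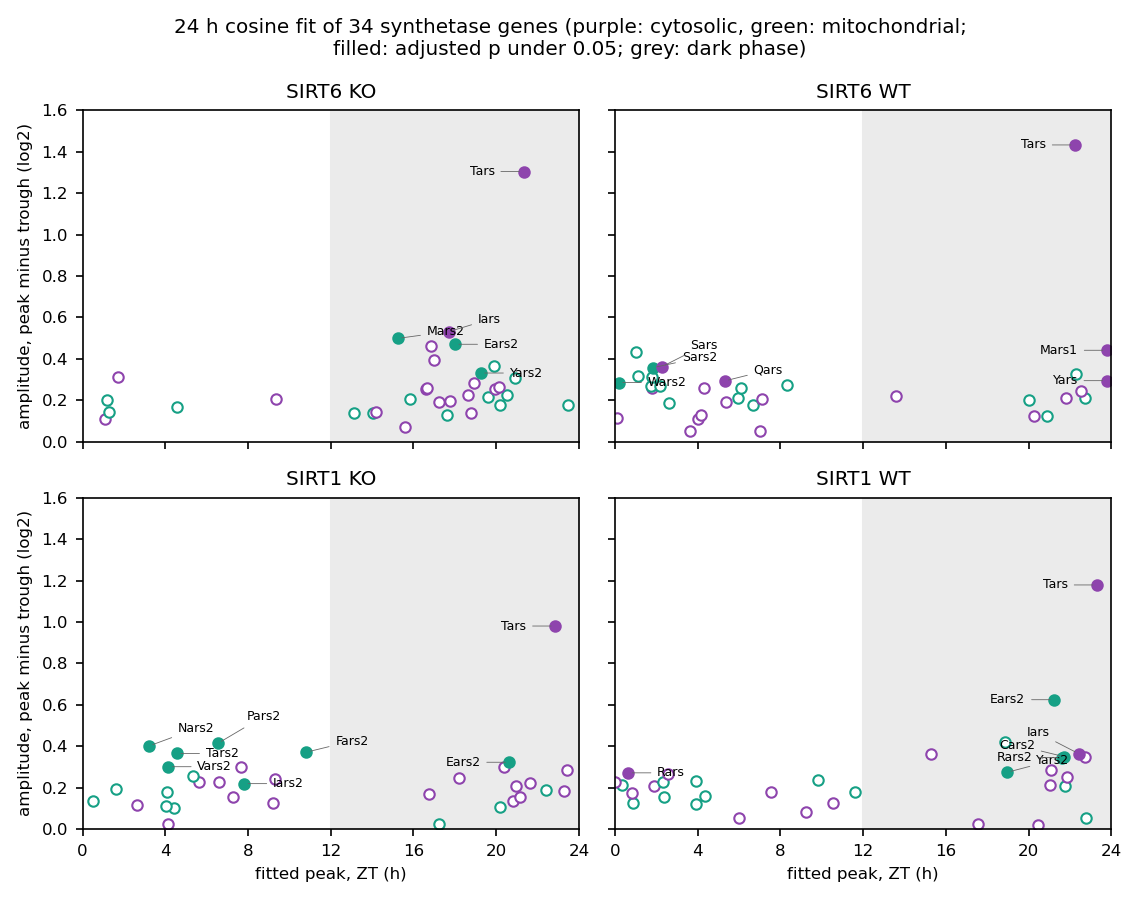
Fitted amplitude (log2, peak minus trough) against fitted peak (ZT, h) of the 34 genes in each set of 18 livers; cytosolic genes are purple, mitochondrial green, filled points are called, and the dark phase is grey. Tars stands alone near 0.98 to 1.43, and 28 points lie in the grey area in SIRT6 KO livers against 11 in SIRT6 WT livers.

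Of the SIRT1 cohort, 8 of 34 members were rhythmic in KO livers (all genes 23.2%), 7 in WT livers (all genes 18.3%) and 2, Tars and Ears2, in both (all genes 11.6%). Of the 8 in KO livers 7 were mitochondrial, and in WT livers 3 were cytosolic and 4 mitochondrial. In each genotype the count of members lay near the share of all genes, and the split by class was not tested. Ears2 had 7.94, 7.88 and 7.86 at ZT8 and 8.29, 8.43 and 8.25 at ZT16 in KO livers, and 7.71, 7.87 and 7.82 at ZT12 and 8.28, 8.50 and 8.32 at ZT20 in WT livers, which were the lowest and highest times of each set. In both sets these times did not overlap. Its amplitude was 0.32 ± 0.084 in KO livers (peak ZT20.6, adjusted p = 0.0221) and 0.62 ± 0.090 in WT livers (peak ZT21.2, adjusted p = 1.9e-04). The difference in rhythm had an unadjusted p of 0.044 and an adjusted p of 0.688. With an array left out, Ears2 kept its call in 16 of 18 repeats in KO livers and in 18 of 18 in WT livers. Its highest KO value lay in KO ZT16 replicate 2, the array of this cohort least like its replicates.

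Of the members called in SIRT1 KO livers alone, Nars2, the mitochondrial asparagine enzyme, had 8.81, 9.11 and 8.69 at ZT4 and 8.64, 8.50 and 8.45 at ZT12 (amplitude 0.40 ± 0.081, peak ZT3.21, adjusted p = 0.00334). Its other probe set averaged 6.28 in these livers, near the filter on low levels. There the amplitude was 0.14 (peak ZT14.3, adjusted p = 0.812 over all 41345 probe sets). Fars2, the mitochondrial phenylalanine enzyme, had 8.53, 8.58 and 8.51 at ZT12 and 8.23, 8.17 and 8.10 at ZT20 (amplitude 0.37 ± 0.076, peak ZT10.8, adjusted p = 0.00384). Tars2, the mitochondrial threonine enzyme, had 8.45, 8.32 and 8.42 at ZT4 and 8.02, 8.05 and 7.70 at ZT16 (amplitude 0.37 ± 0.094, peak ZT4.56, adjusted p = 0.0203). All 3 were high in the light phase or at its end, and low at the start of the dark or later in it. Vars2, for valine, had 8.24, 8.34 and 8.19 at ZT4 and 7.85, 7.96 and 7.71 at ZT16 (amplitude 0.30 ± 0.086, peak ZT4.15, adjusted p = 0.0392). Pars2, for proline, had 6.40, 6.53 and 6.66 at ZT4 and 6.52, 6.04 and 5.83 at ZT20 (amplitude 0.41 ± 0.12, peak ZT6.53, adjusted p = 0.0388). Iars2, for isoleucine, had 9.41, 9.35 and 9.42 at ZT8 and 9.22, 9.13 and 9.08 at ZT20 (amplitude 0.22 ± 0.059, peak ZT7.81, adjusted p = 0.0259). These peaked in the light too, and Pars2 was the member whose highest and lowest times overlapped. Leaving out 1 array at a time, Nars2 and Fars2 kept their calls in 18 of 18 repeats, Tars2 in 15, Iars2 in 14, and Pars2 and Vars2 in 11. The upper quartile as a covariate ended the calls of Iars2, Pars2 and Vars2, quantile normalization those of Iars2 and Vars2, no filter those of Pars2 and Vars2, and centred medians that of Iars2.

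In SIRT1 WT livers Iars had 9.74, 9.54 and 9.68 at ZT0 and 9.11, 9.31 and 9.29 at ZT12 (amplitude 0.36 ± 0.10, peak ZT22.4, adjusted p = 0.038). Rars, the arginine enzyme, had 9.91, 9.88 and 10.00 at ZT0 and 9.66, 9.69 and 9.55 at ZT16 (amplitude 0.27 ± 0.071, peak ZT0.642, adjusted p = 0.0281), and its mitochondrial counterpart Rars2 had 8.39, 8.17 and 8.17 at ZT0 and 7.73, 7.98 and 7.99 at ZT8 (amplitude 0.35 ± 0.095, peak ZT21.6, adjusted p = 0.0368). In each of the 3 the high time did not overlap the low one. Cars2, for cysteine, had 8.25, 8.26 and 8.15 at ZT12 and 8.72, 8.66 and 8.40 at ZT20 (amplitude 0.35 ± 0.081, peak ZT21.7, adjusted p = 0.0134). Yars2 had 8.51, 8.62 and 8.71 at ZT8 and 8.93, 8.85 and 8.96 at ZT20 (amplitude 0.27 ± 0.068, peak ZT19, adjusted p = 0.0195). Cars2 kept its call in 18 of 18 repeats with an array left out, Yars2 in 16, Rars in 14, and Iars and Rars2 in 10. Centring of array medians ended the calls of Iars, Rars and Rars2, no filter those of Iars and Rars2, and the upper quartile as a covariate that of Iars. The test of a difference in rhythm called 0 of 34 members (all genes 0%), and Tars2 and Ears2 alone had an unadjusted p under 0.05 (2 of 34; all genes 7.25%). Fitted peaks lay in the dark for 14 of 34 members in KO livers and 16 in WT livers, near the shares of all genes, 42.8% in KO livers and 48.4% in WT livers.

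Averaged over the 6 times, 4 cytosolic synthetases were lower in SIRT6 KO livers than in WT livers, namely Sars, Farsb, Eprs and Iars, and 1 mitochondrial synthetase, Aars2, was higher. These 5 of 34 members compare with 6.61% of all genes tested; the 4 lower members compare with 3.22% and the 1 higher member with 3.39%. All the differences were small, at most 0.16 in size among the called members. Sars, which charges serine tRNA, had a lowest, median and highest value of 8.65, 8.93 and 9.07 in KO livers and of 8.70, 9.04 and 9.46 in WT livers. The ranges overlapped, but 15 of 18 KO livers lay below the WT mean of their time. The daily averages were 8.92 ± 0.11 in KO livers and 9.08 ± 0.18 in WT livers, a difference of -0.16 ± 0.042 (SE, adjusted p = 0.015). Its p was the lowest of the set, and the mean was lower in KO livers at 6 of 6 times. Farsb, the beta subunit of the phenylalanine enzyme, had a lowest, median and highest value of 9.17, 9.50 and 9.76 in KO livers and of 9.45, 9.68 and 9.88 in WT livers. The ranges overlapped, with 14 of 18 KO livers below the WT mean of their time. The daily averages were 9.52 ± 0.15 in KO livers and 9.66 ± 0.14 in WT livers, a difference of -0.14 ± 0.037 (SE, adjusted p = 0.0229). Its KO mean was lower at 6 of 6 times.

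Eprs, the fused glutamate and proline enzyme, had a lowest, median and highest value of 9.50, 9.70 and 9.97 in KO livers and of 9.67, 9.83 and 10.00 in WT livers. Again the ranges overlapped, and 15 of 18 KO livers lay below the WT mean of their time. The daily averages were 9.71 ± 0.14 in KO livers and 9.84 ± 0.11 in WT livers, a difference of -0.13 ± 0.037 (SE, adjusted p = 0.0344). The KO mean was lower at 4 of 6 times. Iars, part of the same complex as Eprs, had a lowest, median and highest value of 8.96, 9.33 and 9.66 in KO livers and of 9.22, 9.46 and 9.76 in WT livers. The ranges overlapped widely, and 12 of 18 KO livers lay below the WT mean of their time. The daily averages were 9.33 ± 0.21 in KO livers and 9.46 ± 0.15 in WT livers, a difference of -0.13 ± 0.037 (SE, adjusted p = 0.0381). It was lower in KO livers at 4 times, at ZT0, ZT4, ZT8 and, by -0.0022, at ZT16, and higher at the other 2. Aars2, which charges alanine tRNA in mitochondria, had a lowest, median and highest value of 7.45, 7.76 and 8.06 in KO livers and of 7.28, 7.61 and 7.84 in WT livers. The ranges overlapped, and 14 of 18 KO livers lay above the WT mean of their time. The daily averages were 7.77 ± 0.14 in KO livers and 7.61 ± 0.16 in WT livers, a difference of 0.16 ± 0.046 (SE, adjusted p = 0.0324). The KO mean was higher at 6 of 6 times. With single arrays left out in turn, Sars and Farsb kept their calls in 36 of 36 repeats, while Aars2 lost its call in 9, Eprs in 16 and Iars in 19. No filter on low levels ended the calls of Eprs, Iars and Aars2, and quantile normalization and centring of array medians ended that of Aars2.

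**Figure D3:**
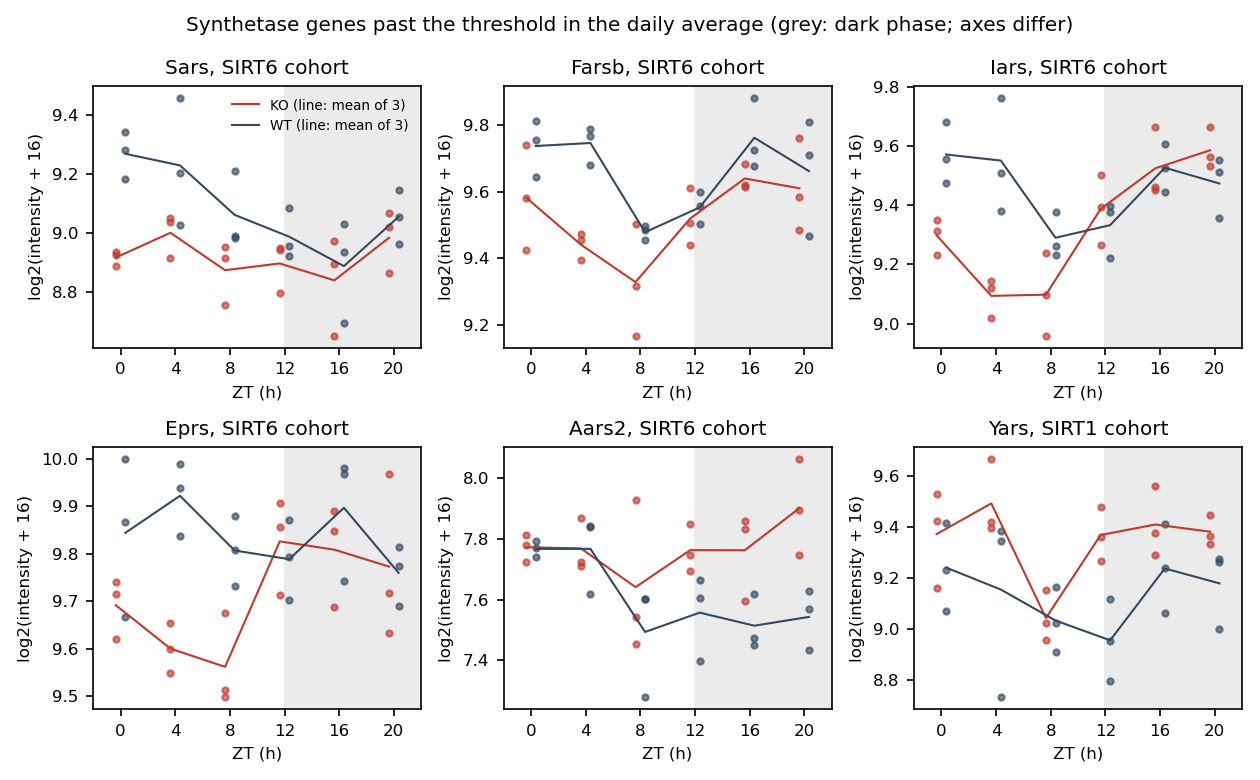
The 6 called members by ZT (h) as log2(intensity + 16), with livers as points, means of 3 as lines, KO in red and WT in dark blue; the vertical axes differ between panels. The KO line of Sars lies below the WT line throughout, those of Iars and Eprs lie below it from ZT0 to ZT8, and that of Yars in the SIRT1 cohort lies above its WT line.

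The remaining members of the SIRT6 cohort did not pass. The largest of them were Nars2, with 8.45 ± 0.18 in KO livers and 8.66 ± 0.28 in WT livers (-0.21 ± 0.068, adjusted p = 0.0634), and Pars2, with 6.40 ± 0.22 and 6.21 ± 0.18 in KO and WT livers (0.19 ± 0.067, adjusted p = 0.0861). Among 11 other settings 2 called Nars2, lower in KO livers: array weights (adjusted p = 0.011) and the upper quartile as a covariate (adjusted p = 0.048). Array weights also called Pars2, higher in KO livers (adjusted p = 0.013). The other probe set of Nars2 gave 0.036 ± 0.055 (adjusted p = 0.896 over all 41345 probe sets), of opposite sign. It lay near the filter on low levels, at 6.32 in KO livers and 6.29 in WT livers. Lars, the leucine enzyme, differed by -0.13 ± 0.051 (adjusted p = 0.141) and Cars, the cysteine enzyme, by 0.15 ± 0.062 (adjusted p = 0.167). The smallest differences were those of Iars2 (-0.0035 ± 0.031), Kars (-0.00037 ± 0.039) and Hars (0.00025 ± 0.042), the last 2 being the lysine and histidine enzymes. Within the multisynthetase complex the differences of the members not yet named were -0.072 ± 0.038 for Qars, -0.048 ± 0.058 for Rars and -0.030 ± 0.041 for Mars1, none of them called. Of the 18 cytosolic members 15 had a lower mean in KO livers, with a median difference of -0.070, and of the 16 mitochondrial members 7 did, with a median of 0.0071. Over all genes tested 48.3% had a lower mean, with a median of 0.0035. The cytosolic count was 15 or 16 of 18 under quantile normalization, centring of array medians and the upper quartile as a covariate, while the sign of the mitochondrial median changed under the first 2 (-0.0018 and -0.014). The share of higher genes among all calls was 51.2% as deposited and 36.2% with centred medians.

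**Figure D4:**
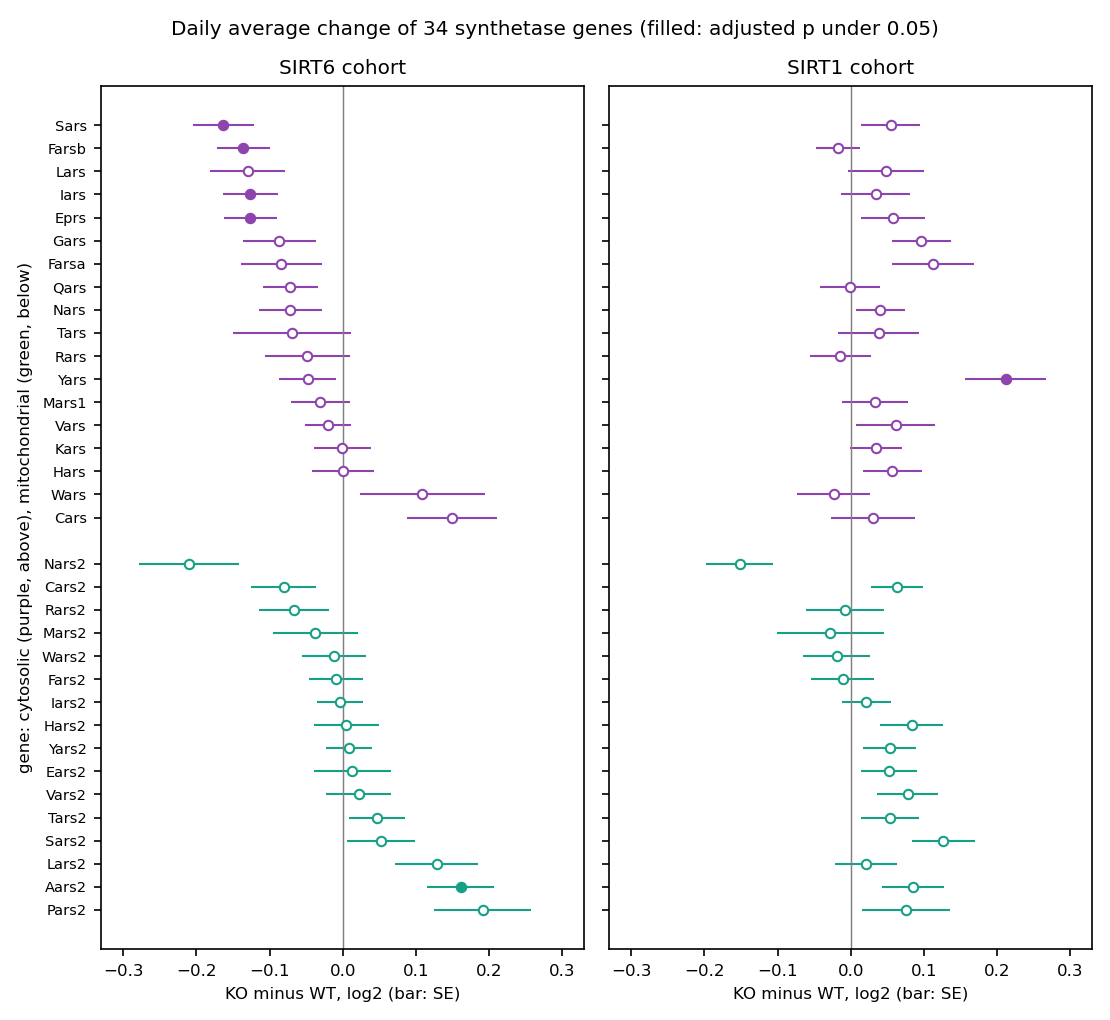
Daily average difference, KO minus WT (log2; bars are SE), of the 34 genes in the SIRT6 cohort (left) and the SIRT1 cohort (right), ordered within each class by the SIRT6 cohort; purple is cytosolic, green mitochondrial, and filled points are called. On the left 15 of 18 purple points lie below 0, and on the right 25 of all 34 points lie above it.

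The direction of the SIRT6 difference varied between the times of day. At ZT4 28 of 34 members had a lower mean in KO livers, with a median difference of -0.22, whereas at ZT20 29 of 34 had a higher one, with a median of 0.13. Over all genes tested 56.2% were lower at ZT4 (median -0.029) and 64.7% higher at ZT20 (median 0.064). At ZT4 the cytosolic members were lower in 17 of 18 cases (median -0.27) and the mitochondrial ones in 11 of 16 (median -0.10), and 15 of 34 members had an unadjusted p under 0.05 (12.3% of all genes did). The mean deviation of the cytosolic class at ZT4 was 0.00, -0.18 and -0.13 in KO livers and 0.23, 0.04 and 0.17 in WT livers, without overlap. The mitochondrial class had 0.02, -0.09 and 0.01 in KO livers and 0.06, 0.10 and 0.11 in WT livers, also without overlap. Over all 34 members ZT4 had the largest median difference of the 6 times, so these separations are descriptions. At ZT0 the cytosolic class overlapped between genotypes and the mitochondrial class did not, and at ZT20 both classes overlapped. The members lower in KO livers numbered 28 at ZT0 and 26 at ZT8, and those higher numbered 25 at ZT12 and 20 at ZT16. Leaving out any 1 array, 28 to 30 members were lower at ZT4. The members share these livers, so such counts are not counts of independent genes.

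A single member was called at a single time, Iars at ZT4 (1 of 34; 0.473% of all genes were called at 1 or more times). Its livers had 9.12, 9.02 and 9.14 in KO and 9.76, 9.38 and 9.51 in WT, without overlap, a difference of -0.46 ± 0.091 (adjusted p = 0.0314). At the same time Eprs had 9.65, 9.60 and 9.55 in KO livers and 9.94, 9.84 and 9.99 in WT livers, again without overlap, a difference of -0.32 ± 0.090 (adjusted p = 0.202). Farsb had 9.45, 9.40 and 9.47 in KO livers and 9.68, 9.79 and 9.77 in WT livers, a difference of -0.30 ± 0.090 (adjusted p = 0.258). In all, 13 of 34 members had every KO liver below every WT liver at ZT4 (11.1% of all genes did) and 0 had every KO liver above (7% of all genes); of the 13 Iars alone passed a correction over all genes and times. The call of Iars ended under quantile normalization, with no filter, and in 5 of 36 repeats with an array left out, all of them arrays of ZT4; over the 36 repeats the difference was -0.54 to -0.35. At ZT0 Sars had 8.92, 8.89 and 8.93 in KO livers and 9.18, 9.34 and 9.28 in WT livers, a difference of -0.35 ± 0.10 (adjusted p = 0.237), without overlap, as in 9 of 34 members lower in KO livers at that time (10.6% of all genes), while 1 member was higher without overlap (4.2% of all genes).

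**Figure D5:**
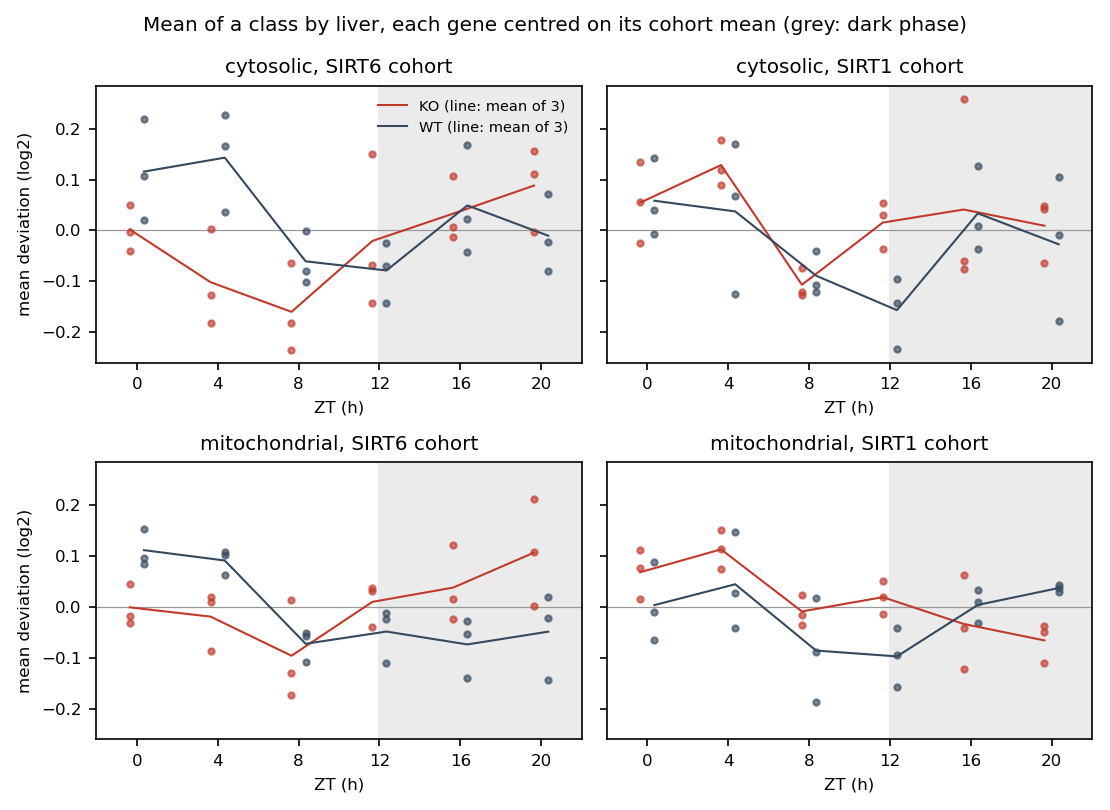
Mean deviation (log2) of the cytosolic and mitochondrial members by ZT (h) in each cohort, every gene centred on its cohort mean; points are livers, lines means of 3, KO red and WT dark blue. In the SIRT6 cohort the KO line lies below the WT line at ZT0 and ZT4 in both classes and above it at ZT20, and in the SIRT1 cohort it lies above the WT line at ZT4 and ZT12.

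In the SIRT1 cohort 1 of 34 members changed in the daily average, Yars, which was higher in KO livers. All genes tested were called in 2.27% of cases, 1.06% higher and 1.21% lower. Yars, the tyrosine enzyme of the cytosol, had a lowest, median and highest value of 8.96, 9.37 and 9.67 in KO livers and of 8.73, 9.14 and 9.42 in WT livers. The ranges overlapped, and 15 of 18 KO livers lay above the WT mean of their time. The daily averages were 9.34 ± 0.18 in KO livers and 9.13 ± 0.21 in WT livers, a difference of 0.21 ± 0.056 (SE, adjusted p = 0.0384). The KO mean was higher at 6 of 6 times. At ZT12, where its difference was largest, Yars had 9.48, 9.36 and 9.27 in KO livers and 8.79, 9.12 and 8.95 in WT livers, a difference of 0.41 ± 0.14 (adjusted p = 0.428). The livers did not overlap there, as in 15 of 34 members higher in KO livers at ZT12 (9.24% of all genes), while 1 member was lower without overlap (4.25% of all genes). The call ended under quantile normalization, with no filter, and in 15 of 36 repeats with an array left out. Nars2 had the next largest difference, 8.72 ± 0.18 in KO livers and 8.87 ± 0.16 in WT livers (-0.15 ± 0.046, adjusted p = 0.0728), which was negative as in the SIRT6 cohort, and its other probe set gave -0.025 ± 0.057. Among 11 other settings 2 called Nars2, lower in KO livers: quantile normalization (adjusted p = 0.019) and array weights (adjusted p = 0.028). Sars2 had 7.99 ± 0.15 in KO livers and 7.86 ± 0.13 in WT livers (0.13 ± 0.043, adjusted p = 0.112). It was called, higher in KO livers, with centred medians (adjusted p = 0.019) and with the upper quartile as a covariate (adjusted p = 0.034). The smallest differences were those of Fars2 (-0.011 ± 0.042), Rars2 (-0.0077 ± 0.053) and Qars (-0.00026 ± 0.041).

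Of the 34 members 25 had a higher mean in SIRT1 KO livers, 14 of 18 cytosolic (median 0.040) and 11 of 16 mitochondrial (median 0.053), where the median of all genes was -0.0017. The count was 27 of 34 with quantile normalization, 33 with centred medians and 30 with the upper quartile as a covariate. Of all 13308 genes 6530 were higher as deposited, and 7558, 10072 and 7241 with these scalings in the same order. Among all calls the share of higher genes was 46.7% as deposited, 93.5% with centred medians and 62.8% with the upper quartile as a covariate. At ZT12 31 of 34 members had a higher mean in KO livers (median 0.14; all genes 56.8% and 0.027), and 12 had an unadjusted p under 0.05 (all genes 9.48%). The mean deviation of all 34 members at ZT12 was 0.05, 0.03 and -0.03 in KO livers and -0.20, -0.12 and -0.07 in WT livers, without overlap. At ZT20 the mitochondrial class had -0.11, -0.05 and -0.04 in KO livers and 0.04, 0.04 and 0.03 in WT livers, and 13 of its 16 members had a lower mean there. At that time 2 of 34 members were lower in KO livers without overlap (9.88% of all genes) and 2 were higher (4.54%). No member was called at a single time (0 of 34; all genes 0%), and outside ZT12 at most 3 members at a time had an unadjusted p under 0.05.

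The SIRT1 effect minus the SIRT6 effect, each KO against its own WT, was tested over all 72 arrays. It was called for 3 of 34 members, all cytosolic and all higher in the SIRT1 cohort: Yars, Sars and Eprs (all genes 5.76%, of which 3.22% higher and 2.54% lower). The difference was 0.26 ± 0.069 for Yars (adjusted p = 0.0152), from effects of 0.21 in the SIRT1 cohort and -0.048 in the SIRT6 cohort. It was 0.22 ± 0.058 for Sars (adjusted p = 0.0149), with effects of 0.055 and -0.16 in the same cohorts. For Eprs it was 0.18 ± 0.057 (adjusted p = 0.0422), with effects of 0.058 and -0.13. Yars and Sars kept the call in 72 of 72 repeats with an array left out, and Eprs lost it in 40, under quantile normalization and with no filter. In all, 16 of 18 cytosolic members (median 0.11) and 11 of 16 mitochondrial members (median 0.032) had a higher effect in the SIRT1 cohort, against a median of -0.0049 over all genes. The cohorts also differ in strain, and the sources used here do not say whether their arrays were processed together. Strain, any difference in processing and the deleted gene therefore cannot be told apart in this difference.

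Genes that work beside the synthetases were counted in the same daily average, where 3.22% of all genes were called lower and 3.39% higher in SIRT6 KO livers, and 1.21% lower and 1.06% higher in SIRT1 KO livers. Of 26 measured genes of the amino acid response, which include Cars, 1 fell in SIRT6 KO livers and none rose (median -0.027). In SIRT1 KO livers 2 of the 26 fell and 1 rose (median 0.0039). Asns, which makes asparagine and is a classic ATF4 target, averaged 6.79 ± 1.01 in KO livers and 8.06 ± 1.1 in WT livers of the SIRT6 cohort, a difference of -1.27 ± 0.33 (adjusted p = 0.0153). Its SIRT1 cohort averages were 6.29 ± 1.26 in KO livers and 8.25 ± 1.11 in WT livers, a difference of -1.96 ± 0.34 (adjusted p = 0.00394). Eif4ebp1, a repressor of translation initiation, differed by -0.19 ± 0.045 (adjusted p = 0.025) and Ddit4, an inhibitor of mTORC1, by 0.47 ± 0.12 (adjusted p = 0.0384) among SIRT1 livers. Of this list 5 genes were rhythmic in SIRT6 KO livers (all genes 10.6%) and 3 in WT livers (all genes 10.1%). In the SIRT1 cohort 6 were rhythmic in KO livers (all genes 23.2%) and 11 in WT livers (all genes 18.3%).

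Among 9 genes listed under cytosolic elongation and termination, 2 fell in SIRT6 KO livers (all genes 3.22%). This list includes Eef1e1, a scaffold protein of the multisynthetase complex that is also counted in the scaffold list below. Eif5a, which helps ribosomes past stalling sequences, differed by -0.14 ± 0.026 (adjusted p = 8.5e-04). Eef1a1, which carries charged tRNA to the ribosome, differed by -0.067 ± 0.020 (adjusted p = 0.0409). The median of the elongation and termination list was -0.032 for SIRT6 and 0.025 for SIRT1, where none was called. Of 14 mitochondrial translation factors 1 rose in SIRT6 KO livers (all genes 3.39%), Tsfm, the mitochondrial elongation factor Ts, by 0.15 ± 0.038 (adjusted p = 0.0145), with a list median of 0.023, and none was called in the SIRT1 cohort (median 0.039). Of 4 measured genes of tRNA editing and hydrolysis 1 rose in SIRT6 KO livers, against the same share of all genes, namely Dtd2, which removes wrongly attached amino acids, by 0.21 ± 0.054 (adjusted p = 0.0183); the list's median was 0.11, against -0.015 in the SIRT1 cohort with none called. Of the 3 scaffold proteins of the multisynthetase complex 2 were measured and none was called in either cohort (medians 0.030 and 0.012).

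Of 15 core clock genes measured, 15 were rhythmic in SIRT6 KO livers (all genes 10.6%) and 12 in WT livers (all genes 10.1%). In the SIRT1 cohort 15 were rhythmic in KO livers (all genes 23.2%) and 15 in WT livers (all genes 18.3%). None was called in the SIRT6 daily average, and in the SIRT1 cohort Hlf, a clock output factor, was higher by 0.21 ± 0.050 (adjusted p = 0.0285). Of 10 hepatocyte markers none was called in the SIRT6 cohort (median -0.036), and in the SIRT1 cohort Cyp3a11, a drug-metabolising enzyme, was lower, with a difference of -0.18 ± 0.039 (adjusted p = 0.0173) and a list median of -0.019. Kupffer cell markers, those of liver macrophages, had a higher mean in SIRT6 KO livers in 8 of 8 cases (median 0.19) and a lower mean in SIRT1 KO livers in 8 of 8 (median -0.17), and none was called. Their summed intensity ran from 2080 to 12816 in SIRT6 KO livers and from 1686 to 10320 in WT livers, and from 1123 to 3997 in SIRT1 KO livers and 1710 to 4578 in WT livers. Of 7 stellate cell markers 7 had a higher mean in SIRT6 KO livers (median 0.068) and 6 in SIRT1 KO livers (median 0.062). Of 6 endothelial markers 3 had a higher mean in SIRT6 KO livers (median -0.011) and none in SIRT1 KO livers (median -0.060). Lymphocyte markers had medians of 0.090 and 0.024 in the SIRT6 and SIRT1 cohorts (5 measured of 8) and bile duct markers -0.027 and 0.0051 (3 measured of 5). None of the stellate, endothelial, lymphocyte or bile duct markers was called. The part of these cell markers in the synthetase values was not tested.

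Synthetase transcripts also varied together within a cohort. Over the 12 group means of the SIRT6 cohort the mean pairwise correlation was 0.391 among cytosolic and 0.318 among mitochondrial members, against 0.024 among all genes tested. Over 36 deviations from the group means it was 0.345 among cytosolic and 0.186 among mitochondrial members, against 0.029 among all genes. In the SIRT1 cohort the group means gave 0.325 and 0.233 for cytosolic and mitochondrial members (all genes 0.020), and the deviations 0.473 and 0.194 (all genes 0.042). These correlations are descriptions, since the points share arrays and any difference in RNA between livers. Members read on the same livers are not independent repeats, so their counts by direction, time or peak are descriptions too.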

How the data were processed

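Total RNA of whole liver was hybridised as 1 biotin-labelled sample per array. Per the submitters' processing notes, probe set intensities were made with Affymetrix Expression Console 1.1.1 and PLIER 2.0 before they were deposited. The deposited intensity values are on a linear scale. The normalization settings and the genome build stay unknown here, and the labels hold no batch. All value columns were matched to samples by name (0 unmatched).

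The probe set with the highest mean stood for each gene with 1 symbol, values were taken as log2(intensity + 16), and the lowest 40% of genes by mean (under 6.00) were left out, leaving 13308. Each cohort was fitted as 12 group means over 36 arrays with limma 3.58.1 in R 4.3.3 (empirical Bayes with an intensity trend). The tests were KO minus WT over the 6 times, KO minus WT at each time with 1 correction over genes and times, a 24 h cosine per 18 arrays, genotype by cosine, and the difference of effects over 72 arrays. The threshold was an adjusted p of 0.05 (Benjamini-Hochberg). The steps were tested on simulated data. The number of arrays limits the precision. Motifs were searched in RefSeq promoters.

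The members and gene lists (multisynthetase scaffold, elongation and termination, mitochondrial translation factors, tRNA editing and hydrolysis, amino acid response, core clock, and markers of bile duct, endothelium, stellate cells, lymphocytes, Kupffer cells and hepatocytes) were chosen with earlier results of these data known. All members may be named; full statistics are given for called members and for the 3 largest and 3 smallest daily changes of a cohort, and for each other list up to 3 called genes. Further members were given beside them after their values were seen.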

Additional observations from a re-analysis of the deposited data

Results flagged for a closer look

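In 3 cytosolic synthetases the effect of the SIRT1 knockout and that of the SIRT6 knockout differed by a test of the difference itself (limma, 24 group means over 72 arrays, adjusted over 13308 genes). These were 3 of 34 members, while 5.76% of all genes were called. The SIRT1 effect minus the SIRT6 effect was 0.26 (log2) for Yars, 0.22 for Sars and 0.18 for Eprs. With an array left out, Yars and Sars kept the call in 72 of 72 repeats. Eprs lost it in 40, and also under quantile normalization and with no filter. Yars was higher in SIRT1 KO livers than in their WT livers, and Sars and Eprs were lower in SIRT6 KO livers than in theirs; the effect in the other cohort was not called for any of the 3. Strain and the cohort's arrays differ along with the deleted gene, and these cannot be told apart.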

How the results depend on the processing

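In the daily average of the SIRT6 cohort 5 members were called, and numbers in brackets are calls among all genes tested (880). That was 13 with array weights (2623), 8 with the array's upper quartile as a covariate (1664) and 2 with no filter (777). In the SIRT1 daily average 1 was called (302), against 5 with array medians centred (1501) and 2 with array weights (1044). It was 2 with the upper quartile as a covariate (1321) and 0 with no filter (209). With quantile normalization the 1 call was Nars2, lower in KO livers, in place of Yars (among all genes 207 were called higher and 179 lower). At single times of the SIRT6 cohort 1 was called (63), against 16 with array weights (2532). None was called with quantile normalization (52) or with no filter (54). Rhythmic members of SIRT6 KO livers numbered 5 (1415), against 8 with medians centred (1360) and 10 with array weights (2069). They numbered 11 with the upper quartile as a covariate (2268) and 2 by an F test over the 6 times (480). Those of SIRT6 WT livers numbered 7 (1349), against 3 with quantile normalization (1094), 3 with no filter (1039) and 2 by F test (410). Those of SIRT1 WT livers numbered 7 (2440), against 12 with quantile normalization (3043), 4 with medians centred (2210) and 2 by F test (1266). The difference between the effects of the cohorts was called for 3 (767), against 10 with medians centred (1962). It was called for 9 with array weights (2439) and 8 with the upper quartile as a covariate (1784). The SIRT6 difference in rhythm was called for 0 (1), against 1 (13) when adjusted over genes rhythmic in either genotype. The cause of these changes was not tested. Pseudocounts 1 and 64, no intensity trend, all probe sets and a filter of the lowest 60% moved none of these counts by over 1.5 times. Of the members called in any test, that filter leaves out Mars2, Pars2 and Wars2, so their calls end with it.

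Leaving out each array in turn gave 2 to 7 calls in the SIRT6 daily average (2 without WT ZT16 replicate 2, KO ZT16 replicate 3 or KO ZT20 replicate 3) and 0 to 2 in the SIRT1 one. It gave 0 to 1 at single times of SIRT6, 3 to 8 rhythms in SIRT6 KO livers, 2 to 8 in SIRT6 WT livers, 5 to 11 in SIRT1 KO livers and 4 to 9 in SIRT1 WT livers, and 2 to 5 calls for the difference between cohorts. Among all genes the median number of calls was 812 and 255.5 in the SIRT6 and SIRT1 daily averages, and 55.5 at single times of SIRT6. For rhythms it was 1241 and 1110.5 in SIRT6 KO and WT livers, and 2864.5 and 2238.5 in SIRT1 KO and WT livers. For the difference between cohorts it was 726. The widest shift was in SIRT6 WT livers without ZT16 replicate 3, where 2 rhythms were left. The counts of members lower at ZT4 (26 to 32 under all other settings), higher at ZT12 (28 to 31) and peaking in the dark were followed by alternatives chosen after seeing the data, and none moved by over 1.5 times.

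Differences near 0 changed sign without being called. In the SIRT6 cohort Hars was -0.0022 with quantile normalization, -0.021 with medians centred, -0.030 with array weights and -0.014 with the upper quartile, Kars was 0.0011 with quantile normalization and 0.0018 with array weights, and Iars2 was 0.0051 with the upper quartile. In the SIRT1 cohort Fars2 was 0.050 with medians centred, 0.000726 with array weights and 0.0068 with the upper quartile, Rars2 was 0.053 and 0.032, and Qars 0.061 and 0.020, with medians centred and with the upper quartile. With an array left out they ranged from -0.017 to 0.015 (Hars), -0.015 to 0.014 (Kars), -0.019 to 0.0077 (Iars2), -0.032 to 0.010 (Fars2), -0.036 to 0.016 (Rars2) and -0.025 to 0.016 (Qars).

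The labels do not say that a replicate number marks a shared batch or day. The numbers were not taken as pairs, since not every pair correlated above 0.1. That rule cannot show that livers of the same number shared no batch. Deviations of KO and WT livers with the same number correlated from -0.36 to 0.74 in the SIRT6 cohort (over 0.1 in 11 of 18 pairs; median 0.25, against -0.087 for other numbers) and from -0.28 to 0.37 in the SIRT1 cohort (6 of 18; median 0.028, against 0.019), and 18 of 36 and 13 of 36 livers correlated best with their own number. With the replicate number as a block the calls numbered 5 and 1 in the daily averages of SIRT6 and SIRT1, 1 and 0 at single times, 7 and 5 for rhythms in SIRT6 KO and WT livers, 9 and 5 in SIRT1 KO and WT livers, and 3 for the difference between cohorts. The block ended the calls of rhythm of Yars and Sars2 in SIRT6 WT livers and of Iars and Rars2 in SIRT1 WT livers.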

Other observations

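The probe set shared by Aars, the alanine enzyme of the cytosol, and Exosc6, a subunit of the RNA exosome, reads both genes together and was kept out of the set. It averaged 9.60 ± 0.16 in SIRT6 KO livers and 9.49 ± 0.15 in WT livers (SD, n = 18 each), a difference of 0.11 ± 0.048 on the log2 scale (SE; limma, adjusted p = 0.322; p-values of this probe set were adjusted over all 41345 probe sets with no filter). In the SIRT1 cohort it averaged 9.69 ± 0.13 in KO livers and 9.52 ± 0.19 in WT livers, a difference of 0.17 ± 0.055 (adjusted p = 0.119). Its 24 h rhythm was not called in any of the 4 sets of livers. Its largest amplitude was 0.33, in SIRT6 KO livers, with a fitted peak at ZT18.6 (adjusted p = 0.080).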
